A study of Mus musculus with 2 samples.

Results

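The cytosolic and mitochondrial chaperones are described here as a list of 44 genes out of 20655 genes that could be named on the arrays, in lenses of newborn mice. The list holds 10 genes of the Hsp70 family with its Hsp110 relatives, 3 Hsp90 genes, 2 genes of the mitochondrial Hsp60 and Hsp10 pair, 11 Dnaj genes, 5 Bag genes, 7 Cct genes, 4 further co-chaperones and 2 heat shock factors. Probes were assigned through the RefSeq transcript accession that the arrays carry. Of the 44 genes, 42 had at least 1 probe, and every one of their 61 probes was well above background on both arrays. Hspa1b and Dnajb5 matched no probe and have no value.

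Lens RNA was hybridised to Agilent 1-colour arrays, with 1 array for each genotype, both at postnatal day 0. The knockout array, titled CKO, held lens RNA of mice whose genotype is given as Foxp1 KO, a lens-specific knockout of the forkhead transcription factor Foxp1. The reference array held lens RNA of a litter mate whose genotype is given as wild-type. Both are labelled as C57BL/6 mixed background, and the labels name a floxed Foxp1 allele and a Pax6-L-Cre driver in the treatment text of both, so whether the wild-type animal carried either is not given. The labels do not say whether lenses of several animals were pooled. With 1 array per genotype there is no test across animals, no p-value is given, and every difference below is a difference between these arrays.

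The scanner's processed signal, a background-subtracted spot brightness on a linear scale, was put on the log2 scale. The 75th percentile of each array on that scale was then subtracted. A difference is the value on the Foxp1 knockout array minus that on the wild-type array, averaged over the probes of a gene. Each member probe was printed once (1 spot). Spot noise was therefore taken from 281 other probes printed at least 5 times and is given as an SD on the log2 scale, which ranged from 0.083 for the brightest class of probes to 0.29 for the dimmest. It covers spot noise alone and not differences between animals, dissections or labelling reactions. In lens tissue, fewer cells of a type and less RNA per cell cannot be told apart.

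Chaperones bind unfolded proteins and help them to fold, to reach a compartment or to be degraded. Hsp70 proteins work in a cycle in which Dnaj proteins bring the client and stimulate ATP hydrolysis, and in which Bag and Hsp110 proteins release the nucleotide. Hsp90 takes over clients near their final fold, and the ring of Cct subunits folds actin and tubulin. Heat shock factors bind heat shock elements, repeats of a short word in alternating orientation, and raise the transcription of many of these genes under stress. Lens fibre cells lose their organelles and keep their proteins for life, which is why protein folding has been studied in this tissue.

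The deleted gene was checked first. The 3 Foxp1 probes read 969.9, 464 and 38.4 on the knockout array, against 3460.2, 1677 and 97.5 on the wild-type array, a mean difference of -1.66. Lens identity was checked with 11 markers chosen for this work. All 11 were measured, and 4 lay above 0 and 7 below it. Their median was -0.021. Among markers of other cell types, 8 of the 9 measured retina and neuron genes lay above 0, and their summed signal was 7223 on the knockout array and 5019 on the wild-type array. Of the 4 measured mesenchyme genes 3 lay above 0, and they summed to 1335 in the knockout and 1003 in wild-type. Their companions Dcn and Lum, at 158 and 48.9 on the knockout array, against 22.2 and 4.34 on the wild-type array, were not well above background on both. All 4 measured erythroid genes lay below 0, and they summed to 12967 in the knockout and 15777 in wild-type. The 3 measured macrophage genes (summed signal 880.3 on the knockout array, 941 on the wild-type array) and the 3 measured pigment epithelium genes (795 on the knockout array, 1069.6 on the wild-type array) lay below 0 too. Of 4 vessel genes 2 lay on each side of 0. Rpe65, a defining gene of the pigment epithelium, had signals under 11 on both arrays. The part of these cell types in the chaperone values was not tested.

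The chaperones as a list were close to equal on both arrays. Of the 42 measured members, 0 were higher by 2-fold or more in the knockout and 1 was lower by that much. Over all 14254 measured genes, 1.02% were higher and 5.86% lower by that rule. At a threshold of 1.5-fold, 1 member was higher and 1 lower, beside 4.01% and 12.8% of all measured genes. The median difference of the members was 0.075, beside 0.0060 for all measured genes and 0.082 for genes at or above the median signal. Relative to the median of all genes it was 0.069, but -0.024 after quantile normalization and -0.022 after loess. Within 0.25 of 0 lay 31 members (73.8%), beside 57.5% of all measured genes. The members were mostly bright, however. A total of 36 members reached the median signal of all genes. Of these, 30 lay within 0.25 of 0 (83.3%), beside 74.0% of genes that bright. Past 2-fold lay 0 of the 36 in either direction, beside 0.842% of bright genes higher and 0.393% lower. Past 1.5-fold, 1 of the 36 was higher and 0 were lower, beside 3.55% and 1.57% of bright genes. Of the 42 members 28 lay above 0 and 14 below. The share above 0, 66.7%, stood beside 50.9% of all measured genes, with 49.1% below. For the 36 bright members the share was 69.4%, beside 67.8% of bright genes above 0 and 32.2% below, so among genes of like brightness the members' split was near the background. The split turned round to 16 above and 26 below when the 75th percentile was taken over probes detected on both arrays, which lowers every gene alike. Scaling by array medians raised every gene by 1.08, and then 41 members lay above 0 and 34 were at least 2-fold higher, beside 61.2% of all genes.

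**Figure D1:**
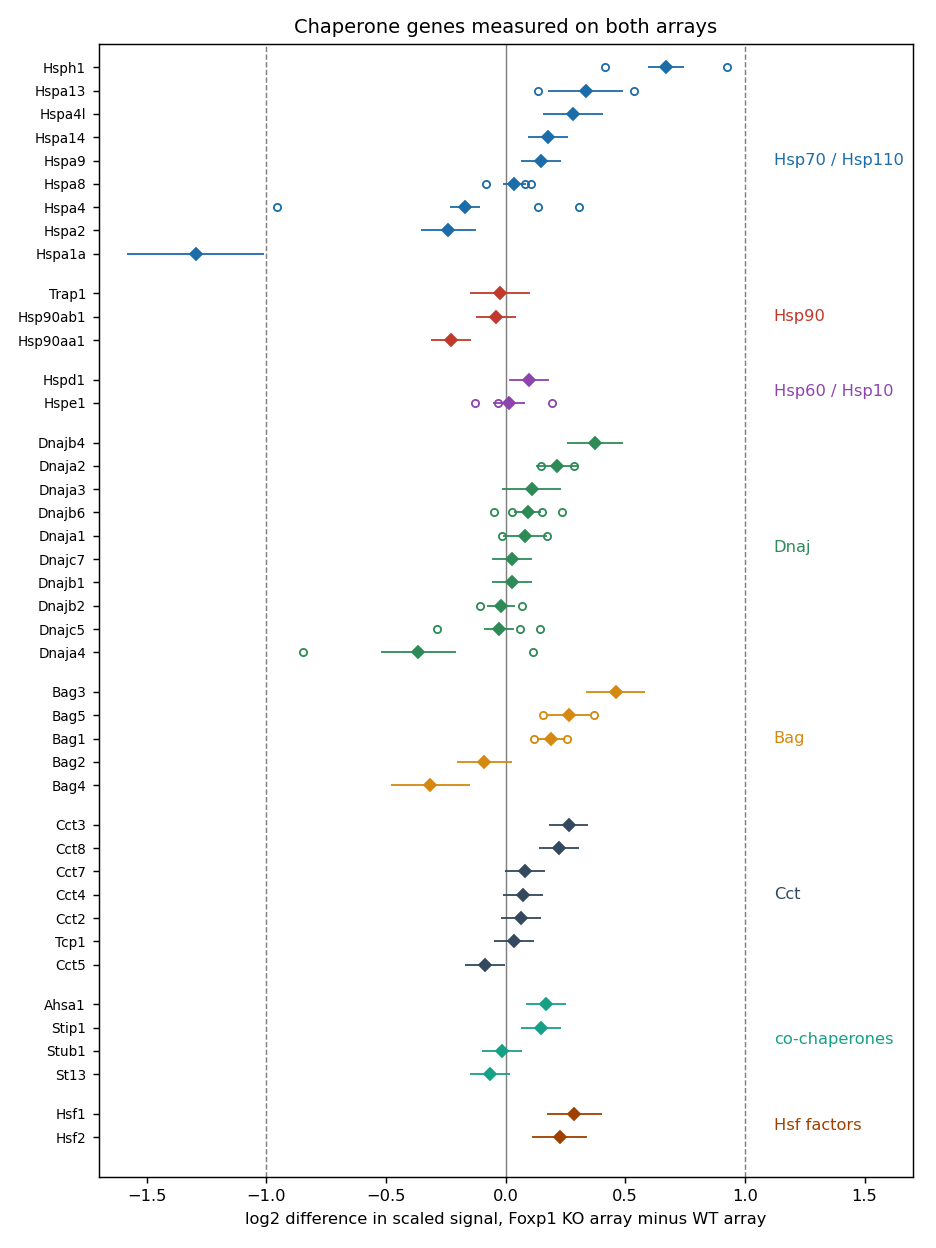
Log2 difference in scaled signal, Foxp1 knockout array minus wild-type array, for the 42 measured chaperone genes by family. Diamonds are means over probes, bars are 1 spot SD, open circles are single probes of genes with several, and dashed lines mark 2-fold. Hsph1 lies furthest right at 0.67, and Hspa1a at -1.30 alone passes a dashed line.

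By size, 18 of the 42 members lay more than 2 spot SDs from 0, 13 of them above and 5 below. That is 42.9% of the members, beside 41.2% of all measured genes, so the share of members beyond spot noise was near that of the arrays as a whole. No member spot was saturated or carried an outlier flag (0 of each). Most probes were far from the dim end of the scale, and 40 of the 61 read at least 1000 on both arrays. Of these 40 probes, 33 lay within 0.25 of 0. Only 3 probes, of Hspa1a, Dnaja4 and Hspa13, read below 100 on either array.

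**Figure D2:**
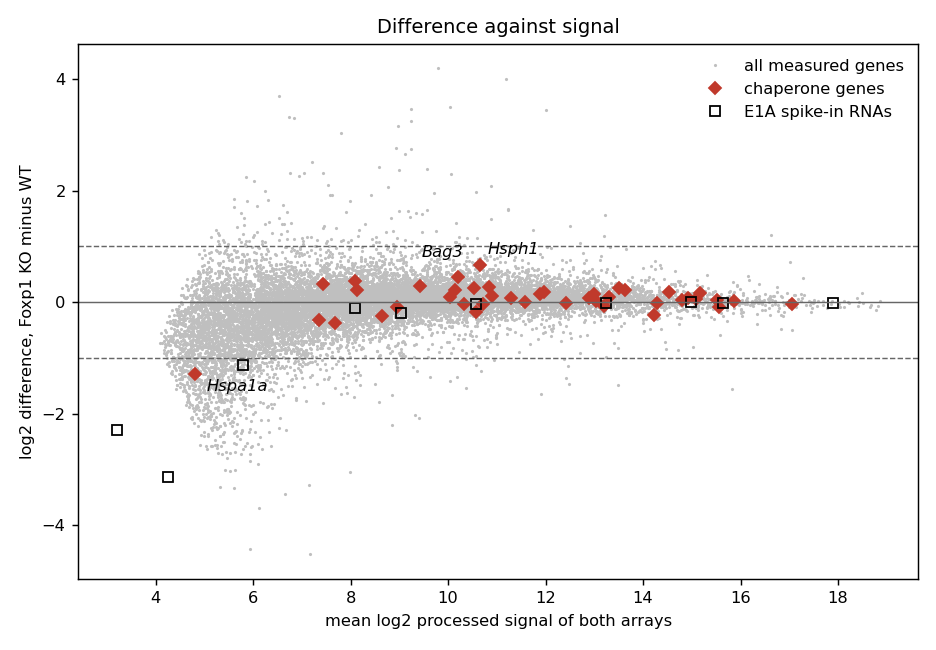
Log2 difference, Foxp1 knockout minus wild-type, against the mean log2 processed signal of both arrays, for all 14254 measured genes (grey), the chaperones (red) and 10 E1A spike-in RNAs (open squares). The spike-ins sit near 0 at high signal and below it at low signal, where the spike-in at 37.6 on the knockout array and 82.3 on the wild-type array reads -1.12 and where Hspa1a also lies.

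Among the Hsp70 genes the largest difference above 0 belonged to Hsph1. Hsph1 encodes Hsp105, an Hsp110 protein that releases nucleotide from Hsp70 and is induced by heat. Its brighter probe read 3541 on the knockout array and 1882 on the wild-type array, a 1.90-fold higher signal. Its other probe read 1156 on the knockout array and 875 on the wild-type array, which is 1.33-fold higher. Both probes were thus higher, though by unequal amounts, and their mean difference was 0.67, with a spot SD of 0.075. Of the 7127 bright genes, 178 had a difference as high or higher, Hsph1 included. The Hsph1 difference stayed between 0.54 and 0.93 under the alternatives other than array medians.

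The promoter of Hsph1 is shown because the gene stood highest in the list and its start region holds a heat shock element. Sequences are those of RefSeq on GRCm38.p6, matched by symbol, with windows of 250 bases before and 50 after a start site. They come from a build other than the mm9 layout of the arrays, and so serve to show promoters and not to place probes. The 250 bases upstream of the outer Hsph1 start site, chr5:149636337-149636586 on the minus strand, read as follows, with a 2-unit heat shock element (TTCNNGAA or GAANNTTC) in capitals.
Hsph1: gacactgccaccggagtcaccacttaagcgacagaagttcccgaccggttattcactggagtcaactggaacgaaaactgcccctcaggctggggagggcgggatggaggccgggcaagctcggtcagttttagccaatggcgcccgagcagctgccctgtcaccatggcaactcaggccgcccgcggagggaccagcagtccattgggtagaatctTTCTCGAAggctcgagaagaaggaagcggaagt
A 3-unit element (TTCNNGAA followed by NNTTC, on either strand) lay just after that start, at bases 37 to 49, chr5:149636288-149636300, and was TTCTGGAAAGTTC.

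The other Hsp110 genes were Hspa4 and Hspa4l, both nucleotide exchange factors of Hsp70. Hspa4l read 2006 on the knockout array and 1667 on the wild-type array, a difference of 0.28. The Hspa4 probes disagreed by more than those of any other member. The brightest probe read 11555.5 on the knockout array and 9438 on the wild-type array, a difference of 0.31. A dimmer probe read 616 on the knockout array and 1208 on the wild-type array, a difference of -0.96. The remaining probe read 400.3 on the knockout array and 368 on the wild-type array, a difference of 0.14. The mean of -0.17 for Hspa4 therefore rests on 1 probe of 3, and it became 0.31 with the brightest probe alone. All 3 probes carry the same transcript accession, and where each lies in the transcript is not used here.

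Hspa1a, the stress-inducible cytosolic Hsp70, was the member past 2-fold. Its probe read 17.7 on the knockout array and 43.8 on the wild-type array, a 2.45-fold lower signal and a difference of -1.30 with a spot SD of 0.29. Both readings were among the dimmest of the list. The spike-in RNAs nearest in brightness also read lower in the knockout. The dimmer one read 6.64 on the knockout array and 54.8 on the wild-type array, a difference of -3.13. The brighter one read 37.6 on the knockout array and 82.3 on the wild-type array, a difference of -1.12. The dimmest of all read 4.22 on the knockout array and 19.9 on the wild-type array, a difference of -2.30. The spike-ins at 6.64 and 4.22 were not well above background on the knockout array. The Hspa1a probe and the spike-in at 37.6 were well above it on both arrays. Brighter spike-ins at 262 and 490.5 on the knockout array, against 285 and 567 on the wild-type array, differed by -0.11 and -0.19. The part of this shift in the Hspa1a reading was not tested. After quantile normalization the Hspa1a difference was -0.042, after loess -0.29 and after normexp background correction -0.49, so the 2-fold call was lost under each of these. Array medians, which raise every gene alike, gave -0.22, and relative to the median of all genes the difference was then -1.30, as in the reported scaling. Hspa1a and Hspa1b are near-identical copies, and the probe may read both.

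The upstream bases of Hspa1a are shown because induction of this gene through upstream heat shock elements is a textbook case. They span chr17:34972157-34972406 on the minus strand, with the 2-unit element in capitals.
Hspa1a: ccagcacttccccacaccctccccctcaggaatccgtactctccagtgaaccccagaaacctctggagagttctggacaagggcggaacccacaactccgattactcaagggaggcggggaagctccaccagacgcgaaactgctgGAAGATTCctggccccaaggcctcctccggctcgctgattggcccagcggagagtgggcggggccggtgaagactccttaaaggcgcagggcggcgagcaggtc
Over the same 250 bases Hspa1b differed at 3 positions and was identical at 98.8%.

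Hspa8, the constitutive cytosolic Hsp70 that also uncoats clathrin vesicles, was even on both arrays. Its probes read 92494, 51148 and 22049 on the knockout array, against 98762, 48033 and 21017 on the wild-type array. These are differences of -0.081, 0.10 and 0.083, with a mean of 0.035 and a spot SD of 0.048. Hspa2, an Hsp70 best known from the testis, read 364 on the knockout array and 434 on the wild-type array, a difference of -0.24. Hspa14, which assists folding at the ribosome, had a difference of 0.18, and Hspa9, the mitochondrial Hsp70, one of 0.15. Hspa13, a microsomal Hsp70 relative, had probes at 905 and 41.2 on the knockout array, against 833 and 28.7 on the wild-type array. Its mean difference of 0.33 came mostly from the dim probe, at 0.54, beside 0.13 for the brighter one, and it moved to 0.84 after quantile normalization, 0.70 after loess and 0.099 after normexp. Under quantile normalization and loess Hspa13 stood above Hsph1, at 0.56 and 0.58. The Hsp70 family as a whole had a median of 0.15, with 6 of 9 measured genes above 0, 1 at least 2-fold lower and 0 at least 2-fold higher.

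**Figure D3:**
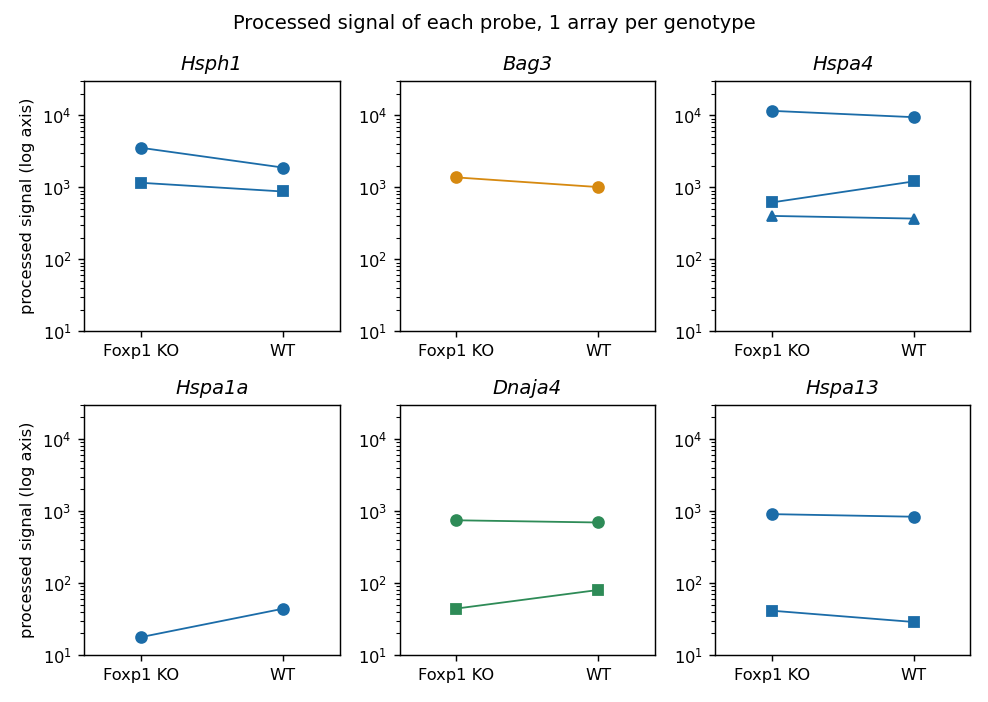
Processed signal (log axis) of every probe of 6 members, with the Foxp1 knockout array on the left and the wild-type array on the right, and lines joining readings of 1 probe. Both Hsph1 probes and the Bag3 probe read higher in the knockout, 1 of the 3 Hspa4 probes reads 616 in the knockout against 1208 in wild-type, and the probes of Hspa1a and the lower ones of Dnaja4 and Hspa13 are dim.

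The 3 Hsp90 genes all lay below 0, with a median of -0.039 that was above 0 after scaling by array medians alone (1.04). Hsp90aa1, the inducible cytosolic form, read 17669 on the knockout array and 20892 on the wild-type array, a difference of -0.23 that was 2.74 spot SDs from 0. It stayed below 0 under every alternative except array medians, between -0.48 and -0.22. Hsp90ab1, the constitutive form, read 133349 on the knockout array and 138341 on the wild-type array, a difference of -0.039. Trap1, the mitochondrial Hsp90, read 1268 on the knockout array and 1301 on the wild-type array, a difference of -0.024 that turned above 0 after normexp correction (0.038).

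Hspd1 and Hspe1 encode the mitochondrial Hsp60 barrel and its Hsp10 lid and are transcribed away from each other. Hspd1 read 10325 on the knockout array and 9743 on the wild-type array, a difference of 0.097. The bright Hspe1 probes read 15928 and 11968 on the knockout array, against 16420 and 10549.8 on the wild-type array, differences of -0.030 and 0.20. With its dim probe at -0.13, Hspe1 had a mean of 0.013. Neither gene of the pair lay beyond 2 spot SDs. The shared region between them held overlapping 3-unit heat shock elements, shown as read for each gene, chr1:55088039-55088096, minus strand for Hspd1 and plus strand for Hspe1, with the elements in capitals.
Hspd1: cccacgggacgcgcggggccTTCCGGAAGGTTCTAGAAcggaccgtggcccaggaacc
Hspe1: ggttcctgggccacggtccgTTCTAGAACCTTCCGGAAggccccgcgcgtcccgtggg
Over the 5 mitochondrial members, Hspa9, Trap1, Hspd1, Hspe1 and the J protein Dnaja3, differences ran from -0.024 to 0.15 with a median of 0.097, and 0 passed 2-fold.

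The Dnaj genes encode the J proteins that deliver clients to Hsp70. Their median was 0.053, with 7 of 10 measured genes above 0. It was -0.074 with the 75th percentile over detected probes and -0.00063 after quantile normalization, and 8 of the 10 lay within 0.25 of 0. Dnajb4, a heat-inducible J protein, was highest and read 309 on the knockout array and 241 on the wild-type array, a difference of 0.37 that was 3.23 spot SDs from 0. Dnajb1, the major stress-inducible Hsp40 and the brightest reading of the family, was even, at 60295 on the knockout array and 59748 on the wild-type array, a difference of 0.027. Dnaja1, a farnesylated J protein, read 47024 on the knockout array and 42108 on the wild-type array with its bright probe, a difference of 0.17, and its dim probe lay at -0.014. Dnaja2 had probes at 0.15 and 0.29. Dnaja4 was lowest at -0.36, and its probes disagreed. Its brighter probe read 743 on the knockout array and 693 on the wild-type array, a difference of 0.12. Its dim probe read 44.1 on the knockout array and 79.9 on the wild-type array, a difference of -0.84, in the range in which spike-ins also read lower. Dnajb6, which suppresses aggregation of polyglutamine proteins, had 4 probes between -0.047 and 0.23. Dnajc5, the cysteine string protein of secretory vesicles, had 3 probes between -0.29 and 0.14. Dnaja3 lay at 0.11, Dnajc7 at 0.027 and Dnajb2 at -0.018.

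Dnajb6 held a 3-unit element at its start region, although its difference was 0.092. The stretch around it, chr5:29735832-29735884 on the plus strand, is shown with the element in capitals.
Dnajb6: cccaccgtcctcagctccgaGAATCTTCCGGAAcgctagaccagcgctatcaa
Dnajb4, the highest J protein, held a 2-unit element, in capitals, close to its inner start site, at chr3:152193846-152193879 on the minus strand.
Dnajb4: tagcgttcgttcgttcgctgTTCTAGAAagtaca

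The Bag genes encode nucleotide exchange factors that steer Hsp70 clients, and they had the highest median of the 5 families set apart, 0.19, except with the brightest probe of each gene, when it was 0.12. Bag3, a stress-inducible member that sends clients to autophagy, read 1373 on the knockout array and 1008 on the wild-type array, a difference of 0.46 that was 3.72 spot SDs from 0. Bag5 had probes at 1724 and 1532 on the knockout array, against 1562 and 1196 on the wild-type array, with a mean difference of 0.26. Bag1, which also binds Bcl2, had probes at 39448 and 16166 on the knockout array, against 36655 and 13663 on the wild-type array, with a mean difference of 0.19. Bag3, Bag5 and Bag1 were each above 0 with every probe and under all alternatives. Bag2, an inhibitor of the ligase Stub1, read 478 on the knockout array and 513 on the wild-type array, a difference of -0.090. Bag4, known as silencer of death domains, read 145 on the knockout array and 182 on the wild-type array, a difference of -0.31 within 2 spot SDs. None of the 5 Bag genes passed 2-fold.

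The Cct genes were even, within a range of -0.086 to 0.26. Cct3 read 12691 on the knockout array and 10678 on the wild-type array, a difference of 0.26 that was 3.16 spot SDs from 0. Cct8 read 13542 on the knockout array and 11703 on the wild-type array, a difference of 0.22 that was 2.70 spot SDs from 0. The other subunits were within 2 spot SDs. Cct7 lay at 0.082, Cct4 at 0.071, Cct2 at 0.065 and Tcp1, the alpha subunit, at 0.033. Cct5 was the one subunit below 0 and read 46599 on the knockout array and 49943 on the wild-type array, a difference of -0.086. The median of 0.071 was near that of bright genes in general, 0.082, and was -0.056 with the 75th percentile over detected probes. A further subunit, Cct6a, which was not among the 44, lay at 0.14.

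The remaining co-chaperones link Hsp70 with Hsp90. Ahsa1, which stimulates the Hsp90 ATPase, read 38991 on the knockout array and 34995 on the wild-type array, a difference of 0.17 at 2.04 spot SDs. Stip1, the adaptor that hands clients from Hsp70 to Hsp90, read 3970.4 on the knockout array and 3614 on the wild-type array, a difference of 0.15. Stub1, a ubiquitin ligase that binds both chaperones, lay at -0.015, and St13, which stabilises the ADP state of Hsp70, lay at -0.066. Hsf1, the main factor of the heat shock response, read 758 on the knockout array and 627 on the wild-type array, a difference of 0.29 at 2.48 spot SDs. Hsf2 read 300.4 on the knockout array and 259 on the wild-type array, a difference of 0.23 at 1.96 spot SDs, which turned below 0 (-0.025) after normexp correction. Hsf4, the heat shock factor whose mutations cause cataract, was looked at after its value was seen. It read 12283 on the knockout array and 9845 on the wild-type array, a difference of 0.33.

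The probes of a member agreed about as well as those of other genes. For the 13 members with several probes the median distance between the highest and the lowest probe was 0.28, beside 0.25 over the 3543 genes with several probes. The distance passed 0.5 for 3 of the 13, Hspa4, Dnaja4 and Hsph1, which is 23.1%, beside 29.7% of all such genes. For 5 of the 13 all probes lay on 1 side of 0, which was not counted for other genes. Several members overlap other genes in the GRCm38.p6 annotation, with strand not compared. Among them are Stub1 with Jmjd8, Cct8 with Usp16, Cct7 with Pradc1, Tcp1 with Mrpl18 and Acat3, and Trap1 with Dnase1. Further pairs are Dnajb4 with Fubp1, Dnajc7 with Cnp and Nkiras2, and the members Hspd1 and Hspe1 with each other. Whether the signals of such pairs are separate measurements was not checked.

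The heat shock element was looked for in all promoter windows of the list. RefSeq windows were at hand for 34 of the 44 members. Hsp90aa1, Hsp90ab1, Hspa8, Hspa9, Hspa13, Hsf1, Dnajc5, Bag4, Cct4 and St13 had no window and were not searched. The 3-unit element was found in 4 of the 34, Hsph1, Hspd1, Hspe1 and Dnajb6, which is 11.8%, beside 0.662% of all 27025 genes with a window. Hspd1 and Hspe1 hold the same elements in the region they share, so they are not separate finds. The 4 genes had a median difference of 0.095, and the 28 measured members without the element one of 0.081. The shorter 2-unit element, searched after the data had been seen, which each 3-unit element contains, was found in 13 of the 34 members (38.2%), beside 17.0% of all genes. The near-identical Hspa1a and Hspa1b count as separate members here, as do Hspd1 and Hspe1. The 12 measured members with the 2-unit element had a median difference of 0.072, and the 20 measured members without it one of 0.13. The values of members with and without an element overlapped widely. The forkhead word TGTTTAC, in either orientation, was found in 0 of the 34 members and in 4.05% of all genes. A match is a match of letters and not evidence of binding, and a missing match says nothing about regions outside these windows.

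**Figure D4:**
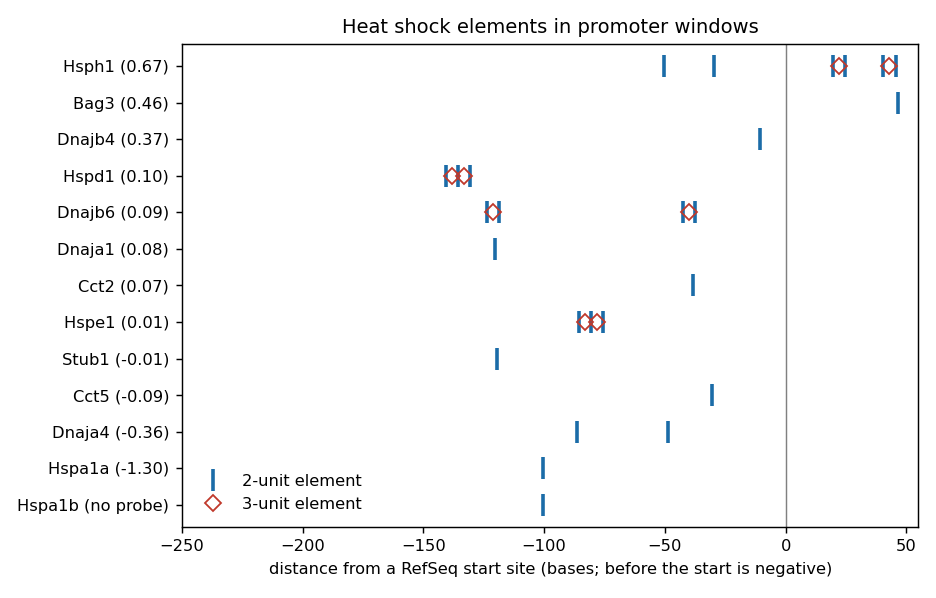
Position of heat shock elements relative to RefSeq start sites (bases, before the start negative) in the promoter windows of 13 members. The 12 measured ones are ordered by their log2 difference, Foxp1 knockout minus wild-type, in brackets, and Hspa1b, which has no probe, is placed last. Where windows of more than 1 start site hold the same element, as for Dnajb6 and Hsph1, it is drawn once per site. Hsph1, Hspd1, Hspe1 and Dnajb6 hold the 3-unit element, and members without any element are not drawn.

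Other genes of the same machinery were taken from a list of 67 chaperones and cofactors. All 67 had a probe and 58 were measured. Of these, 1 was at least 2-fold higher and 0 at least 2-fold lower. The shares over all measured genes were 1.02% and 5.86%. The 58 split into 34 above and 24 below 0, or 58.6% above. The share above 0 was 50.9% of all measured genes and 67.8% of genes at or above the median signal. The median of the 58 was 0.074, beside 0.0060 for all measured genes and 0.082 for genes at or above the median signal. The 5 largest differences in size belonged to Hspb8, Hspa1l, Dnajc9, Dnajc19 and Hspb1. Hspb8, a small heat shock protein that works with Bag3, read 648 on the knockout array and 273 on the wild-type array, a difference of 1.26. Hspb1, another small heat shock protein, read 85407 on the knockout array and 62466 on the wild-type array, a difference of 0.46. Dnajc9, a J protein that handles histones, read 3667 on the knockout array and 2542 on the wild-type array, a difference of 0.54. Dnajc19, of the mitochondrial import motor, had a mean of 0.53 over probes that disagreed, at 1.04 and 0.021. Hspa1l, an Hsp70 best known from the testis, was dim at 22.1 on the knockout array and 35.5 on the wild-type array. Its difference of -0.67 had no settled sign and ran from -0.80 to 0.60 over the alternatives. The other 4 kept their direction under every alternative.

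**Figure D5:**
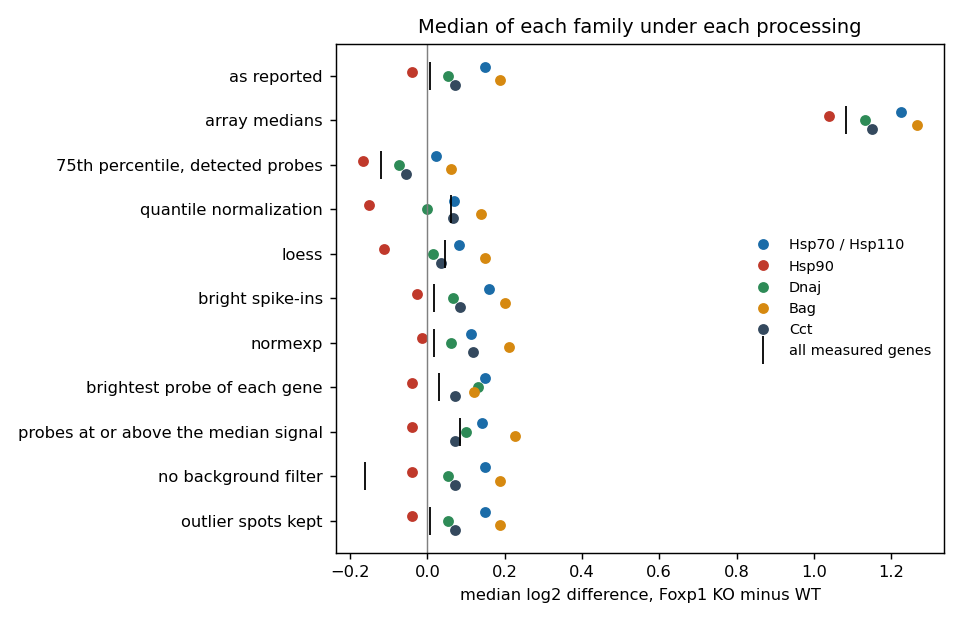
Median log2 difference, Foxp1 knockout minus wild-type, of 5 chaperone families under the reported processing and 10 alternatives, with the median of all measured genes as a black bar. Scaling by array medians moves every family above 1, the Hsp90 median stays left of the bar of all genes except without a background filter, and the Bag median stays right of it.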

How the data were processed

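Total RNA of newborn lenses was measured on 2 arrays. The authors deposited spot intensities, the scanner output of Agilent Feature Extraction 10.7.3.1, with probes annotated to mm9 and no scaling between arrays recorded, per the file headers. Yes or no flags for outliers, saturation and signal well above background are other values deposited in the same files. Here, control spots were dropped, as was any spot with an outlier flag on 1 array or both. The 75th percentile of log2 processed signal was subtracted, and repeated spots were averaged per probe. Measured probes are those with over 50% of spots well above background in each array. Probes were named through unversioned RefSeq accessions of GRCm38.p6, which named 27225 of 55655 probes. The steps were tested on simulated data. No test was possible, and a fixed 2-fold rule was used. Quantile, loess (over all spots, control spots at weight 0) and normexp values came from limma 3.58.1 in R 4.3.3, normexp with an offset of 50 on the median signal of each spot in place of its mean. The other steps used Python 3.11.15. The number of arrays limits the precision. The members, lists and thresholds were chosen with earlier results of these data known. All measured members are named. Members with a difference of at least 0.4 in size, or with probes over 1 apart, are given probe by probe, and of the 67 other chaperones the 5 with the largest differences are named. Cct6a and the overlapping genes were named after their values were seen.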

Additional observations from a re-analysis of the deposited data

How the results depend on the processing

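The 10 alternatives changed the scaling, the background correction, the choice of probes, the filter on dim probes or the treatment of outlier spots. Array medians gave 34 members at least 2-fold higher and 0 at least 2-fold lower, beside 61.2% and 0.709% of all measured genes. Medians were then 1.15 for all members, 1.23 for the Hsp70 and Hsp110 genes and 1.04 for the Hsp90 genes. They were 1.13 for the Dnaj genes, 1.27 for the Bag genes and 1.15 for the Cct genes. The Foxp1 difference was then -0.59. The one lower call, Hspa1a, was lost (0 lower members) under quantile normalization, loess, normexp and restriction to probes at or above the median signal, which leaves Hspa1a out. The share of all measured genes called lower was 5.86% as reported. It was 1.63%, 2.03%, 0.69% and 0.50% under these settings, in that order. Foxp1 read -1.34 after normexp. A threshold of 1.5-fold gave 1 higher member, Hsph1. The 2-unit element, chosen after seeing the data, was found in 13 members in place of 4. The 75th percentile over detected probes lowered every gene alike and put the Dnaj median at -0.074 and the Cct median at -0.056, while array medians raised every gene alike. Positions relative to the median of all genes stay the same under both. The normexp alternative used the median spot signal. No paired analysis was possible because each genotype had 1 array, and no array could be left out. Signals below about 100 limit the values of Hspa1a and of the dim probes of Dnaja4 and Hspa13.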

Other observations

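Some partners of the chaperones were also close to even. The 6 prefoldin genes, whose product hands actin and tubulin to the Cct ring, had a median difference of -0.017, with 3 above and 3 below 0. The 5 mitochondrial quality control genes Clpb, Clpp, Clpx, Lonp1 and Afg3l2, which encode a disaggregase, an unfoldase and proteases, ran from -0.090 to 0.15. The 11 cofactors of Hsp90, among them Ptges3 and Cdc37, had a median of 0.11, with 8 above and 3 below 0. That is 72.7% above 0, beside 67.8% of genes at or above the median signal, whose median was 0.082. The group of Hsp90 cofactors includes Unc45a, at 0.28, but leaves out Unc45b of the same list, at -0.32. Its share above 0 depends on that choice. These groups were formed from the list of other chaperones after their values were seen, and none of their members passed 2-fold at the reported scaling.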
